A study of Homo sapiens with 6 samples.

Results

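Host genes of microRNAs are transcribed as long primary RNAs that carry microRNA hairpins in their exons or introns. The nuclear enzyme DROSHA and its partner DGCR8 cut the hairpins out, XPO5 carries them to the cytoplasm, DICER1 trims them, and an Argonaute protein holds the mature microRNA, which finds its targets mainly through its seed. Smyca, the lncRNA that was knocked down here, belongs to such a host: RefSeq lists it under the symbol MIR23AHG, the gene of the miR-23a, miR-27a and miR-24-2 hairpins, and the study describes Smyca as the part of the primary RNA that DROSHA frees from those hairpins. The counts of MIR23AHG do not separate the cut from the uncut RNA.

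The host genes described here are those of GENCODE release 44 whose symbol starts with MIR and ends with HG, without MIR210HG. The rule gave 83 genes, of which 82 were among the 58302 genes counted, and MIR34BHG was not analysed here. The values that follow come from 27 of the 82, which passed the filter on low counts together with 15048 other genes. Another 22 had a few counts, and 33 had 0 counts in all 6 libraries.

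RNA was sequenced from MDA-MB-231 cells, a human breast cancer line described as mesenchymal and basal-like, which expressed either a control shRNA or Smyca shRNA #1, with 3 libraries in each group. The groups share the cell line, and no drug or time course separates them. The knockdown rests on 1 shRNA, so effects of that hairpin other than on Smyca cannot be told apart from effects of Smyca. The authors removed rRNA, made strand-specific libraries, mapped the reads to GRCh38 with TopHat and took counts per gene from HTSeq. In the study, the libraries of a group are called biological repeats, but the labels do not say whether they came from separate cultures, so the p-values measure the spread between these libraries only. In RNA of bulk cultures, fewer cells of a type and less RNA per cell cannot be told apart.

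Total counts lay between 14999307 and 16501085 per library. All 10 genes of a marker list for MDA-MB-231 were counted in testable numbers, but VIM, which encodes the mesenchymal filament vimentin, was at 71.2 to 305 normalized CPM (counts scaled to a library of 1e6 counts) over the 6 libraries. Epithelial genes were also well counted in every library. KRT8, an epithelial keratin, was at 4249 to 7408 CPM and the adhesion gene EPCAM at 236 to 336. The gut and liver genes VIL1 and HNF4A, which a breast cancer line is not known for, were at 220 to 501 and 65.4 to 194. Not all genes of these lists were present. Of the 18 gut and liver genes, 8 were too low to test, with at most 6 counts in any library, and CDX1, APOB and TTR among them were at 0 in all 6. ESR1 and FOXA1 of the luminal breast list had at most 3 counts, and of the blood genes PTPRC and HBB were at 0, CD3E had at most 4 counts, and CD14, a monocyte gene, had 6 to 25 counts in every library. SMAD4, whose protein the study detected in MDA-MB-231 cells, was at only 0.554 to 0.864 CPM. MDA-MB-231 is therefore the name on the labels of these libraries. The source of the epithelial transcripts and the reason for the low SMAD4 counts were not tested. The libraries of a group were not alike. The summed level of 14 hypoxia-inducible genes was 5677, 2988 and 1678 CPM in control 1, 2 and 3 against 2061, 1967 and 1613 in the knockdown libraries, while that of 13 immediate-early genes was 2738, 2191 and 3923 against 1075, 753 and 918. The part of these states in the host gene values was not tested.

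The mature microRNAs held by the host genes in which every control library lay above every knockdown library are shown first, to say which hairpins these host RNAs carry. Their own levels were not measured here. The sequences were taken from RefSeq (GRCh38.p14) and are written 5′ to 3′, with the seed, bases 2 to 8, in capitals. The hairpins of miR-23a, miR-27a and miR-24-2 lie in an exon of MIR23AHG on chromosome 19, and their main products were
hsa-miR-23a-3p: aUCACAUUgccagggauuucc
hsa-miR-27a-3p: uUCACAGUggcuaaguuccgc
hsa-miR-24-3p: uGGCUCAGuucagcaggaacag

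MIR503HG and MIR222HG are both on the X chromosome. MIR222HG holds miR-221 and miR-222, which share their seed and are known to repress the cell cycle inhibitor p27, and MIR503HG holds miR-503, a relative of miR-16 that is known to repress cyclins.
hsa-miR-503-5p: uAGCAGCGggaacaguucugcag
hsa-miR-221-3p: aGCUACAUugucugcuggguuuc
hsa-miR-222-3p: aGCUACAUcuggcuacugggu

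MIR100HG holds miR-100, let-7a-2 and miR-125b-1 in introns, over a gene of chromosome 11 that spans 122028325 to 122556721.
hsa-miR-100-5p: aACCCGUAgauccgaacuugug
hsa-miR-125b-5p: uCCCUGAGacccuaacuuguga
hsa-let-7a-5p: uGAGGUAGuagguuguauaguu

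The remaining hosts of this group hold 1 hairpin each in an exon, miR-22 in MIR22HG on chromosome 17, miR-4435 in MIR4435-2HG on chromosome 2, and miR-3936 in MIR3936HG on chromosome 5.
hsa-miR-22-3p: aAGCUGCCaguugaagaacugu
hsa-miR-4435: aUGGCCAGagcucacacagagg
hsa-miR-3936: uAAGGGGUguauggcagaugca

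These 12 sequences carry 11 different seeds, since only miR-221 and miR-222 have one in common. The target of Smyca shRNA #1 is the 21-base site GCATAGATAGGTGGGTGAGTG, at chr19:13836056-13836076 on the minus strand of GRCh38. It lies in an exon of MIR23AHG, 210 bases downstream of the miR-24-2 hairpin. A perfect match to it occurred in 0 transcripts of the other host genes.

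No host gene met both criteria of the study, an adjusted p under 0.05 together with a control/knockdown ratio that reached 1.5 or fell to 0.66 (p-values from the quasi-likelihood test of edgeR, adjusted after Benjamini and Hochberg over the 15075 genes). Of all genes tested, 0.0265% did. With an unadjusted p under 0.05 as the only criterion, 6 of the 27 host genes (22.2%) were higher in the control, against 10.4% of all genes tested. None of the 27 was lower in the control by that measure, against 8.74% of all genes. The 6 that were higher in the control were MIR23AHG, MIR503HG, MIR4435-2HG, MIR100HG, MIR3936HG and MIR222HG. MIR23AHG is the target of the shRNA, so its fall in the knockdown was intended. Shares of the 27 host genes given here and below include it. MIR222HG, at an unadjusted p of 0.0494 in edgeR, kept a p under 0.05 in only 6 of 13 alternative settings, and MIR3936HG in 11 of 13, while MIR23AHG, MIR503HG and MIR4435-2HG kept it in all 13 and MIR100HG in the 12 in which it could be tested. With DESeq2's Wald test on the same counts, 2 host genes met both criteria (7.41% of the 27), MIR503HG and the shRNA target MIR23AHG, against 5.55% of all genes tested. By that test 7 host genes had an unadjusted p under 0.05 (25.9%), against 19.5% of all genes.

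Host genes are mostly lncRNA genes, and more lncRNA genes were higher than lower in the control by these measures. Of 1654 lncRNA genes tested, 11.9% had an unadjusted p under 0.05 with the control higher and 2.24% with the control lower. Their median log2 fold change, control over knockdown, was 0.26, compared with 0.14 for the 27 host genes, 0.0048 for 12611 protein-coding genes and 0.036 for all genes. The median of lncRNA genes was 0.13 without control 3 and 0.19 without knockdown 3. By library, the median lncRNA gene lay at 0.037, 0.032 and 0.24 in control 1, 2 and 3 and at 0.046, -0.088 and -0.21 in knockdown 1, 2 and 3, on the log2 scale relative to each gene's mean over the 6 libraries. Knockdown 1 was thus above control 1 and 2, and control 3 and knockdown 3 stood farthest apart. By direction alone, 70.4% of the host genes were higher in the control (69.2% without MIR23AHG), compared with 68.6% of lncRNA genes and 53.4% of all genes. With 1 library left out, the median of the host genes ran from 0.046 (without knockdown 3) to 0.42 (without control 1).

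**Figure D1:**
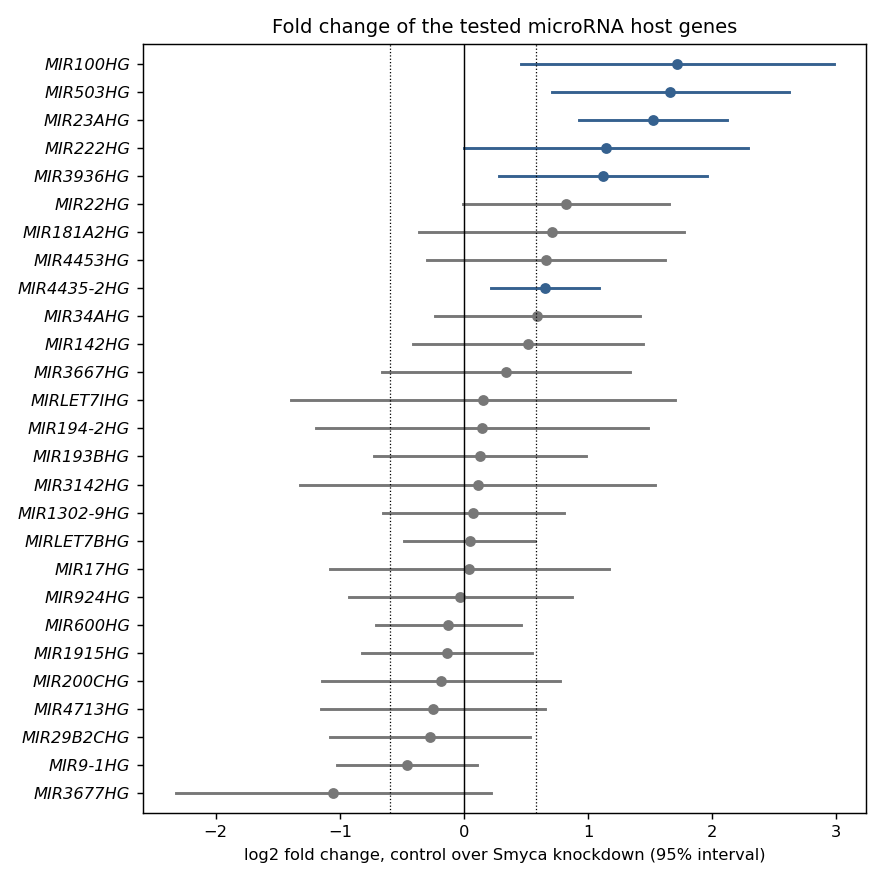
Log2 fold change of each of the 27 tested host genes, control over Smyca knockdown, with its 95% interval from edgeR's quasi-likelihood fit (n = 3 libraries a group). Dotted lines mark ratios of 1.5 and 0.66, and the interval excludes 0 in the 6 genes drawn in blue, all on the control side.

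MIR23AHG, the target of the shRNA, was at 25, 19.5 and 22.0 CPM in the control libraries and 10.5, 6.97 and 5.61 in the knockdown libraries. Each knockdown library lay below each control library, with a log2 fold change of 1.53 (SE 0.26, 95% interval 0.93 to 2.12, adjusted p = 0.111 in edgeR). A two-sided exact permutation test of the 6 values gave p = 0.1, the smallest that 3 against 3 samples allow. By this fit the level was 65.3% lower in the knockdown. The gene length behind the deposited FPKM values of MIR23AHG is 1774 bases, while the RefSeq gene spans 8403 bases, and how much of the count came from Smyca as cut from the primary RNA was not tested. ZSWIM4, the gene on the opposite strand whose exons overlap those of MIR23AHG in GENCODE, had a log2 fold change of 0.22 (SE 0.37). The GENCODE exons of MIR23AHG cover 19049 bases, and whether the overlap lies in the bases that were counted was not tested.

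Besides the target, MIR503HG differed most in counts. It was at 60.9, 44 and 27.6 CPM in the control libraries and at 22.3, 12.2 and 7.20 in the knockdown libraries. The groups did not overlap, though control 3 was only slightly above knockdown 1, and the log2 fold change was 1.66 (SE 0.42, adjusted p = 0.124 in edgeR). The control libraries ranked for MIR503HG as they did for the summed hypoxia-inducible genes. In the knockdown libraries the order of that sum rested on SLC2A1, a glucose transporter gene, without which the sum was 2654, 1357 and 576 CPM in the control against 499.6, 357 and 510.1, with knockdown 3 highest where MIR503HG was lowest. The part of that state in the difference was not tested. The gene lies on the minus strand at chrX:134543119-134546642.

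MIR222HG was at 7.16, 7.01 and 11.4 CPM in the control libraries and at 5.21, 5.13 and 1.19 in the knockdown libraries. Control 3 was the highest and knockdown 3 far below the rest, so that leaving out knockdown 3 brought the log2 fold change from 1.15 (SE 0.50, adjusted p = 0.259 in edgeR) to 0.71. MIR100HG, whose RNA is known to be induced by TGF-β, was low in all libraries. It had 44, 34 and 21 counts in the control against 16, 10 and 3 in the knockdown, or 2.72, 2.09 and 1.34 CPM against 1.02, 0.634 and 0.198. Its log2 fold change of 1.72 was the highest of the 27, but with an SE of 0.55 the 95% interval ran from 0.46 to 2.98.

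MIR4435-2HG, an abundant host that is often raised in tumours, differed less and varied less. Its levels were 28.6, 21.6 and 29.5 CPM in the control libraries against 17.8, 14.5 and 18.4 in the knockdown libraries. The log2 fold change was 0.65 (SE 0.19, adjusted p = 0.142 in edgeR). Of the 100-base stretches of its GENCODE transcripts, 18.6% also occur in transcripts of CYTOR, so the split of reads between these genes is uncertain. The GENCODE exons of MIR4435-2HG cover 34231 bases, against a length of 830 bases behind the FPKM values. CYTOR itself was at a mean of 8.05 CPM in the control and 7.55 in the knockdown (log2 fold change 0.09, SE 0.24).

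MIR3936HG was at 2.78, 2.09 and 1.86 CPM in the control libraries and at 1.33, 0.824 and 0.924 in the knockdown libraries. The groups did not overlap, and the log2 fold change was 1.12 (SE 0.37, adjusted p = 0.166 in edgeR). Exons of SLC22A4 and SLC22A5, carnitine and organic cation transporter genes, overlap it on the other strand. They had log2 fold changes of 0.74 (SE 0.39) and 0.42 (SE 0.20), and as the strand setting of the counting is not given in the sources used here, their reads cannot be told apart from its own with certainty. MIR22HG, a host known to respond to stress and DNA damage, was at 14.9, 13.0 and 20.9 CPM against 11.3, 11.7 and 4.56. Here too the groups did not overlap, but its unadjusted p was 0.0517 and its 95% interval, from -0.01 to 1.65, held 0. Its log2 fold change of 0.82 was 0.49 without knockdown 3. The unadjusted p of MIR22HG fell under 0.05 in edgeR with library totals alone, with the filter dropped, without knockdown 2 and with the reads behind the FPKM values of control 2. It did so with DESeq2's Wald test as well, but in none of the other alternatives.

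In total, 7 of the 27 host genes (25.9%) had all control libraries above all knockdown libraries, as had 12.4% of all genes tested and 17.3% of lncRNA genes. MIR23AHG, the shRNA target, is among the 7. The reverse order, with all knockdown libraries higher, was found in 0 of 27, compared with 12.5% of all genes and 4.29% of lncRNA genes.

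**Figure D2:**
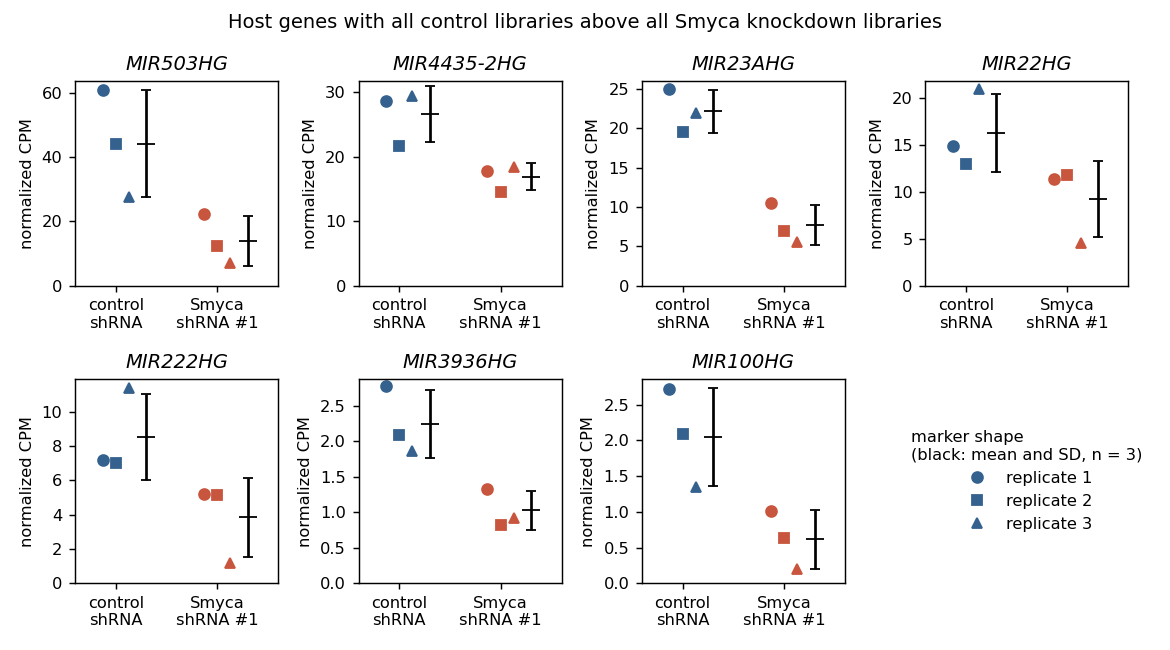
Normalized CPM (linear axis from 0) of the 7 host genes whose groups did not overlap, for each control and each Smyca shRNA #1 library, with marker shape for the replicate number and black bars for mean and SD (n = 3). Knockdown 3 is the lowest library in 5 of the 7 panels, and MIR503HG has the widest spread among control libraries, from 27.6 to 60.9 CPM.

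Counts in all 82 host genes together came to 252, 237 and 248 per 1e6 counts in the control libraries and to 206, 171 and 121 in the knockdown libraries. The sums did not overlap, with means of 246 ± 8.0 and 166 ± 42.9 per 1e6 counts (SD, n = 3 each). Most of this difference sat in a few genes. MIR503HG made up 39.0% of it, the knocked-down MIR23AHG 18.8% and MIR4435-2HG 13.3%. Without the shRNA target, the other 81 host genes summed to 228, 217 and 226 per 1e6 counts in the control against 196, 164 and 115 in the knockdown, with no overlap. With all 3 genes set aside, which were picked for their differences, the sums were 140, 148 and 166 against 155, 138 and 90.8.

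**Figure D3:**
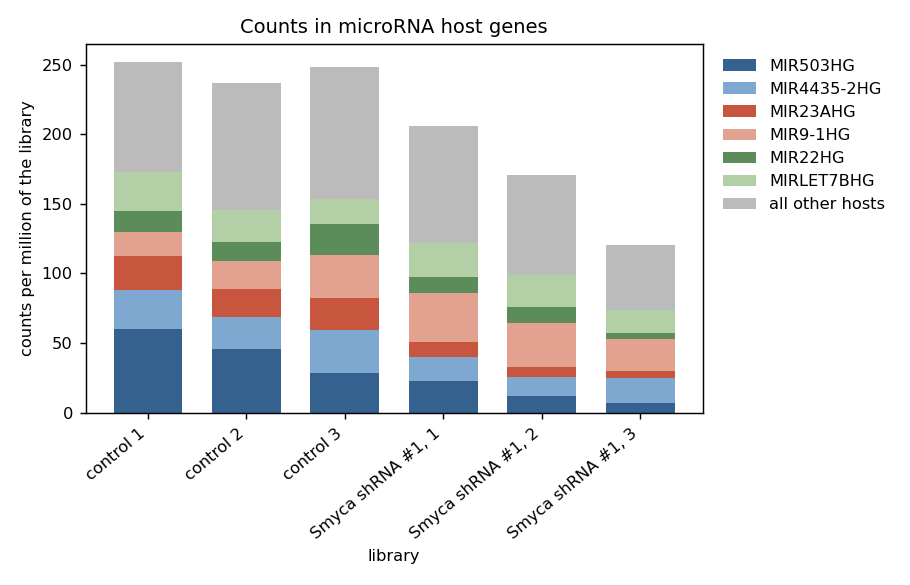
Counts in host genes per 1e6 counts of the library, stacked by gene, for the 3 control and 3 Smyca shRNA #1 libraries. The total runs from 237 to 252 in the control and from 121 to 206 in the knockdown, and the blue and red segments of MIR503HG, MIR4435-2HG and MIR23AHG hold most of the difference.

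Knockdown 3 stood apart from the other libraries. It was the lowest of the 6 libraries in 12 of the 27 host genes, and the median host gene lay 0.51 below its mean over the 6 libraries on the log2 scale, compared with 0.21 below for lncRNA genes and 0.02 above for protein-coding genes. Counts in lncRNA genes made up 0.890% of this library and 0.928% to 1.42% of the others. Without knockdown 3, 15 of 28 host genes tested were higher in the control, in place of 19 of 27, and MIR9-1HG and MIR3677HG had an unadjusted p under 0.05 with the control lower (7.14% of the 28, against 8.39% of all genes in that fit). Without control 3, 15 of 27 were higher in the control and MIR23AHG and MIR503HG met both criteria (7.41%), but so did 10.5% of all genes. MIR9-1HG again had an unadjusted p under 0.05 there with the control lower (3.70% of the 27, against 13.9% of all genes).

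**Figure D4:**
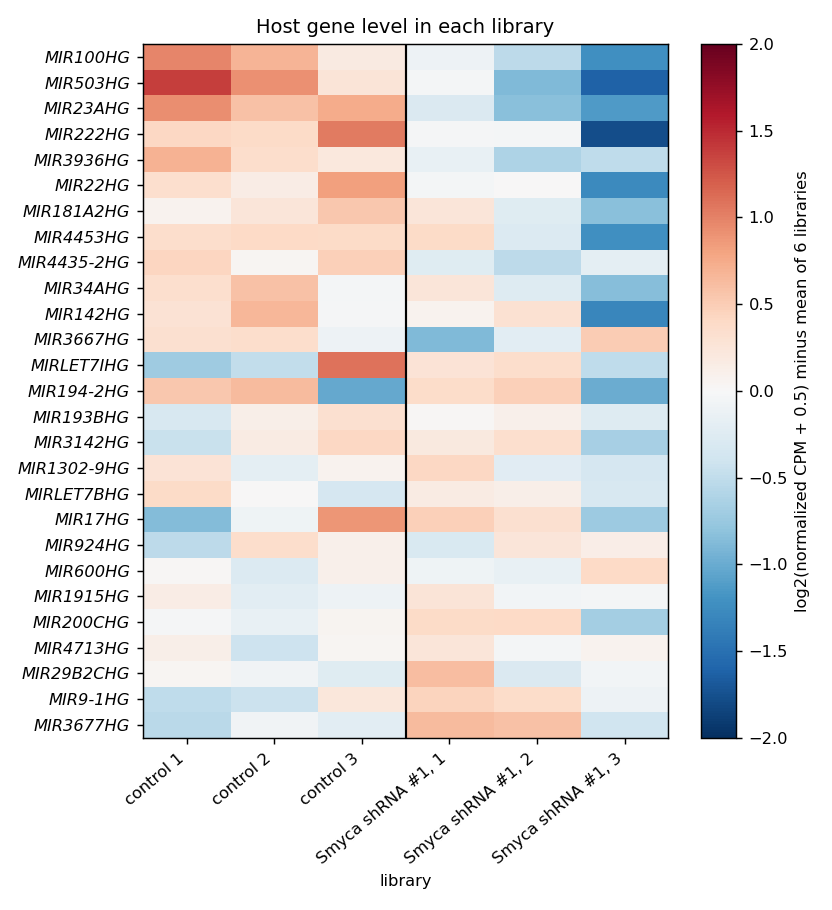
Level of each tested host gene in each library, as log2(normalized CPM + 0.5) minus the mean of the 6 libraries (red higher, blue lower), with genes ordered by fold change and a line between control and Smyca shRNA #1 libraries. Knockdown 3 is the lowest column in 12 of the 27 genes, and control 3 departs from control 1 and 2 in MIRLET7IHG, MIR17HG and MIR194-2HG.

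In MIR17HG and MIR34AHG the groups overlapped. MIR17HG, the MYC-regulated host of the miR-17-92 cluster, was at 3.89, 7.08 and 14.3 CPM in the control libraries and at 10.6, 9.50 and 4.36 in the knockdown libraries. Its values thus spread more within a group than between them, and the log2 fold change was 0.04 with a 95% interval of -1.08 to 1.17. MIR34AHG, the p53-responsive host of miR-34a, was at 5.86, 7.08 and 4.42 CPM against 5.46, 3.74 and 2.31. Its log2 fold change was 0.59 (SE 0.36, unadjusted p = 0.14), and ran from 0.32 without knockdown 3 to 0.93 without knockdown 1.

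The hosts of let-7 microRNAs, which are known to hold back growth and stemness, differed in level. The seed GAGGUAG occurs in microRNAs of 7 of the host genes, of which 3 passed the filter. MIR100HG, with let-7a-2, has been described above. MIRLET7BHG, with let-7a-3 and let-7b, was at 28.8, 22.0 and 17.4 CPM in the control and at 24.6, 23.9 and 17.4 in the knockdown, a log2 fold change of 0.05 (95% interval -0.48 to 0.57). MIRLET7IHG, the host of let-7i, was at 0.555, 0.738 and 3.20 CPM against 1.59, 1.71 and 0.726, with control 3 above all others. Hosts of one seed thus ranged in log2 fold change from 0.05 to 1.72, although the difference between them was not tested. The mature sequences beside let-7a-5p are
hsa-let-7b-5p: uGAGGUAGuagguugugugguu
hsa-let-7i-5p: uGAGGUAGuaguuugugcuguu

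Hosts tied to cell identity were read with the marker values above in mind. MIR200CHG, the host of miR-200c and miR-141, which are known to hold epithelial cells in their state by repressing ZEB factors, was detected in all libraries at 1.85, 1.66 and 1.99 CPM in the control and 2.60, 2.66 and 0.990 in the knockdown. MIR194-2HG, the host of miR-192 and miR-194, which are typical of gut and liver, was at 4.75, 5.11 and 1.28 CPM against 4.19, 4.56 and 1.32. In both groups replicate 3 was thus the low library for MIR194-2HG, and the log2 fold change was 0.14 with a 95% interval of -1.19 to 1.48. MIR142HG, the host of miR-142, a microRNA of blood cells, was at 14.2, 18.7 and 11.4 CPM against 12.2, 14.4 and 4.36. Of the blood genes given above, PTPRC and HBB were at 0 and CD14 had 6 to 25 counts in every library. MIR31HG and MIR155HG were at most 12 and 4 counts in any library.

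In 8 of the 27 hosts the fitted level was higher in the knockdown. MIR9-1HG, a host of miR-9, was the most abundant of these, at 17.8, 19.0 and 30.0 CPM in the control and 35.0, 33.0 and 23.8 in the knockdown. The groups overlapped through control 3 and knockdown 3, and the log2 fold change was -0.46 (SE 0.25, adjusted p = 0.343 in edgeR). It was -0.74 without control 3 and -0.32 without control 1. MIR3677HG, which holds miR-3677 and miR-940, had 5, 10 and 8 counts in the control against 21, 20 and 6 in the knockdown. Its log2 fold change of -1.05 (SE 0.56) was the only one of the 27 with a ratio of 0.66 or less. MIR200CHG, MIR29B2CHG, MIR4713HG, MIR600HG, MIR1915HG and MIR924HG lay between -0.27 and -0.03 on the same scale.

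The other host genes on the control side had log2 fold changes of 0.71 for MIR181A2HG, 0.66 for MIR4453HG, 0.52 for MIR142HG and 0.34 for MIR3667HG, with intervals that held 0. Single libraries decided their size. MIR181A2HG and MIR4453HG were lowest in knockdown 3, at 0.462 and 1.72 CPM, and their log2 fold changes were 0.37 and 0.30 without that library and 1.16 and 1.17 without knockdown 1. MIR142HG ran from 0.14 without knockdown 3 to 0.83 without knockdown 2. MIR3667HG was highest in knockdown 3, at 3.96 CPM, and its log2 fold change was 0.85 without that library and 0.0039 without knockdown 1. MIR193BHG, MIR3142HG and MIR1302-9HG were between 0.08 and 0.13. Of the 100-base stretches of MIR1302-9HG, 25.6% also occur in MIR1302-2HG, another host of the list near a chromosome end, and 34.5% in the unnamed gene ENSG00000259553. On the other strand WASHC1, which encodes a subunit of an actin-nucleating complex, overlaps 14.2% of its exon bases and had a log2 fold change of 0.77 (SE 0.23), so the counts of MIR1302-9HG are uncertain.

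Levels of the hosts can be set side by side per kilobase of the gene length behind the deposited FPKM values. For some hosts that length is far below the exon bases in GENCODE. It was 621 against 3003 for MIR503HG, 830 against 34231 for MIR4435-2HG and 1063 against 14112 for MIR9-1HG. For others, such as MIR142HG at 1625 against 1645, the lengths are close. The order below therefore holds only for the lengths used. In the control, MIR503HG was the highest at 71.1 ± 26.8 CPM per kb (SD, n = 3), followed by MIR4435-2HG at 32.0 ± 5.20, MIR22HG at 21.2 ± 5.41 and MIR9-1HG at 20.9 ± 6.36, the last pair within their spread. MIR23AHG at 12.5 ± 1.55 and MIRLET7BHG at 11.1 ± 2.80 came next, also within their spread of each other. MIRLET7IHG at 0.172 ± 0.170 and MIR3142HG at 0.291 ± 0.144 were among the lowest, within their spread of each other. In the knockdown, MIR9-1HG at 28.8 ± 5.60 CPM per kb and MIR503HG at 22.4 ± 12.4 were within their spread of each other.

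Too low to test were 22 host genes with at most 15 counts in any library. MIR762HG had 6, 11 and 11 counts in the control against 5, 4 and 1 in the knockdown, and MIR378D2HG had 3, 1 and 2 against 0, 0 and 0, so the groups did not overlap in these. No share over all genes as low as these was taken, so no direction is read from such counts. The highest count, 15, was that of MIR181A1HG in control 3. Of the 33 host genes at 0, each is limited to 3 counts over all 6 libraries, or 0.0316 per 1e6 counts, and among them were MIR205HG and MIR137HG.

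The hairpin genes themselves were scarcely counted. The 27 tested hosts hold 48 microRNA genes on their strand, 26 in exons, 19 in introns and 3 across the edge of an exon. Of these, 32 had 0 counts in all libraries, and the highest count was 16. MIR503 had 16, 8 and 2 counts in the control against 9, 11 and 1 in the knockdown, MIR221 had 2, 4 and 7 against 3, 0 and 0, and MIR200C had 4, 5 and 1 against 9, 14 and 2. No direction can be read from counts of this size, and levels of mature microRNAs were not measured here.

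Genes for the proteins that make, use and degrade microRNAs were read from the same fit. Of 35 listed genes, 32 were tested, 22 of which were lower in the control, with a median log2 fold change of -0.21 compared with 0.036 for all genes. None met both criteria of the study. With an unadjusted p under 0.05, 5 were lower in the control (15.6% of the 32, against 8.74% of all genes) and 1 was higher, AGO4 (3.12%, against 10.4%).

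Of the 32 pathway genes, 6 had all knockdown libraries above all control libraries (18.8%, against 12.5% of all genes), namely XPO5, RAN, KHSRP, ADAR, XRN2 and HNRNPA1, an RNA-binding protein that aids the processing of some hairpins. The reverse order was found in AGO4 and in DIS3L2, an exonuclease that degrades uridylated let-7 precursors (6.25%, against 12.4%). XPO5, the exporter of hairpins, was at 69.9, 75.9 and 79.1 CPM in the control and at 96.4, 108 and 98.1 in the knockdown, with no overlap (log2 fold change -0.43, SE 0.13, adjusted p = 0.154 in edgeR). RAN, the GTPase that XPO5 works with, was at 460, 534 and 655 CPM against 695, 855 and 789. Its log2 fold change was -0.50 (SE 0.17). KHSRP, a protein known to promote the processing of let-7 and other hairpins, was at 522, 559 and 587 CPM against 801, 925 and 785 (log2 fold change -0.59, SE 0.14).

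ADAR, which edits double-stranded RNA including hairpins, was at 216, 224 and 164 CPM in the control against 335, 295 and 302 in the knockdown, a log2 fold change of -0.62 (SE 0.16). XRN2, a nuclear exonuclease that degrades RNA left after cutting, was at 112, 107 and 123 CPM against 159, 143 and 172 (log2 fold change -0.47, SE 0.14). All 3 knockdown libraries were above all 3 control libraries for both genes. AGO4, an Argonaute, was on the control side, at 20.7, 16.6 and 15.2 CPM against 12.2, 8.93 and 12.7 (log2 fold change 0.63, SE 0.22), while AGO2, the slicing Argonaute, had a log2 fold change of -0.33 (SE 0.19) and overlapping groups.

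The 95% intervals of DROSHA, DGCR8 and DICER1, the genes of the cutting complexes, held 0. DROSHA had a log2 fold change of -0.18 (SE 0.16), DGCR8 of -0.50 (SE 0.27) and DICER1 of -0.05 (SE 0.20). SMAD3, which can join the DROSHA complex on some hairpins, was at 79.4 to 145 CPM with a log2 fold change of 0.27 (SE 0.23). Its partner SMAD4 was too low to test, at 0.554 to 0.864 CPM in all 6 libraries. LIN28A and LIN28B, the inhibitors of let-7 processing, had at most 1 count in a library.

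**Figure D5:**
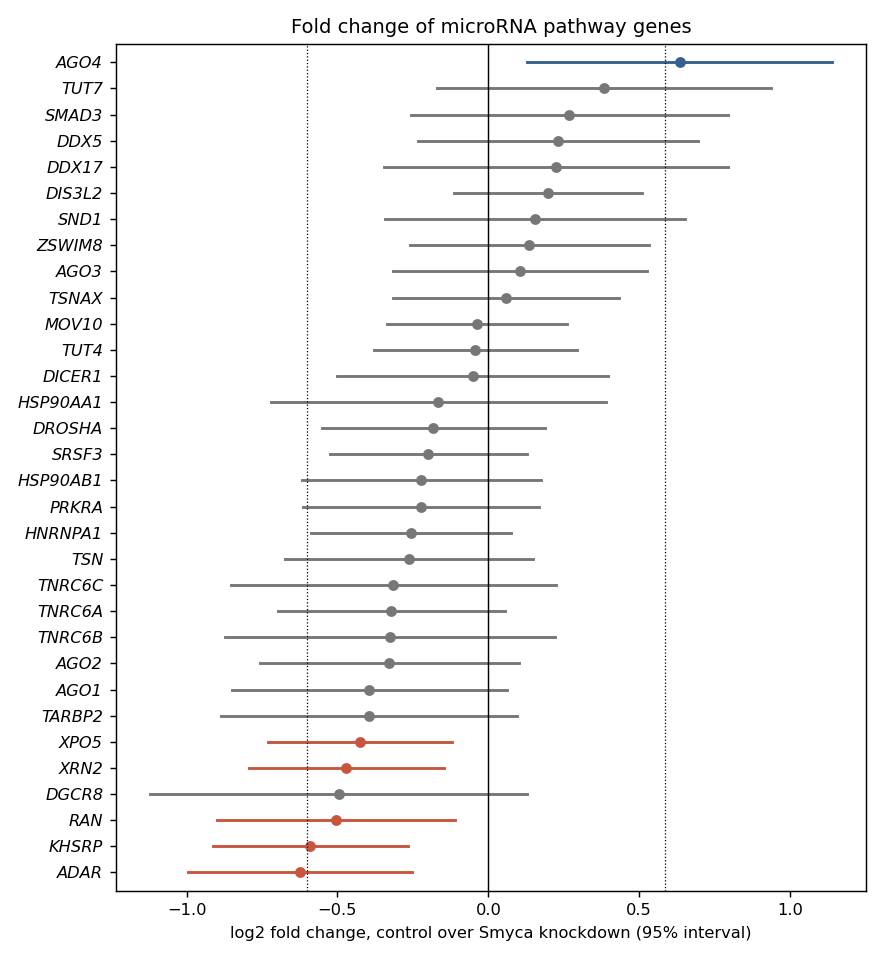
Log2 fold change, control over Smyca knockdown, of the 32 tested genes of the microRNA pathway list with 95% intervals from edgeR's quasi-likelihood fit (n = 3 libraries a group) and dotted lines at ratios of 1.5 and 0.66. AGO4 is the only gene whose interval lies above 0 (blue), and those of XPO5, XRN2, RAN, KHSRP and ADAR lie below it (red).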

How the data were processed

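Total RNA of MDA-MB-231 cells with control shRNA or Smyca shRNA #1 (3 libraries each) was sequenced as 150-base paired reads after rRNA removal. The authors mapped the reads to GRCh38/hg38 with TopHat 2.0.12 (also given in the submitters' processing notes) and deposited, per library, a raw read count from HTSeq for 58302 Ensembl genes. The authors also deposited an FPKM value per gene, which was used for gene lengths and, for control 2, as an alternative source of reads. The annotation release and the strand setting of the counting are not given in the sources used here.

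Counts were tested with edgeR 4.0.16 in R 4.3.3 (TMM normalization, filterByExpr, quasi-likelihood test of group, no covariate, Benjamini-Hochberg adjustment over 15075 genes), and the code was tested on simulated data. The study used DESeq, which was not used here. Samples were grouped by their titles. The biological coefficient of variation was 25.2%. Symbols and spans came from GENCODE release 44, which matched 57532 of the identifiers, and mature sequences from RefSeq. Overlaps and shared stretches were taken from the same release, whose exons need not be those that were counted. Of the 48 microRNA genes in tested hosts, 46 had a mature sequence there. The members and gene lists were chosen with earlier results of these data known. Every tested host was to be named, and untested ones by counts. Results were recomputed with DESeq2 1.42.0, with RLE factors, with library totals alone, with the filter dropped (1 count) or raised to 10 counts in each library, with a replicate block, with each library left out, and with the reads that the FPKM values of control 2 imply. Intervals of 0 counts cover counting error only.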

Additional observations from a re-analysis of the deposited data

How the results depend on the processing

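The number of host genes that met both criteria was 2 (MIR23AHG and MIR503HG) with no filter beyond 1 count (4.08% of 49, against 3.01% of all genes) and also with DESeq2 (7.41% of 27, against 5.55%), and 0 to 2 with 1 library left out, where the 2 were the same genes and came without control 3 (7.41% of 27, against 10.5%). The median log2 fold change of the host genes was 0.046 to 0.42 with 1 library left out. Host genes with an unadjusted p under 0.05 and the control lower numbered 1 without the filter (MIR9-1HG, 2.04% of hosts against 5.67% of all genes) and 0 to 2 with 1 library left out, with 2 without knockdown 3 (7.14%, against 8.39%). For pathway genes this number, in either direction, was 4 to 13 with 1 library left out. The 4 without knockdown 2 were 12.1% against 10.8% of all genes, the 13 without control 3 were 40.6% against 29.6%, and the 9 without the filter were 25.7% of 35 against 13.2%. MIR222HG lost its unadjusted p under 0.05 with RLE factors, with the replicate block and without control 1, 2 or 3 or knockdown 2 or 3, where it ran from 0.0512 to 0.120 in edgeR, and MIR3936HG without control 1 or knockdown 2. MIR23AHG had a log2 fold change of 1.49 without the filter, 1.51 with DESeq2 and 1.33 to 1.81 with 1 library left out. Its adjusted p (Benjamini-Hochberg) was 4.0e-05 with DESeq2, 0.0152 without control 3 in edgeR, and up to 0.440 in the other alternatives.

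The sign turned in hosts whose fold change was small. With 1 library left out, log2 fold changes ran from -1.05 to 0.55 for MIRLET7IHG, -0.24 to 0.54 for MIR194-2HG, -0.074 to 0.34 for MIR193BHG, -0.31 to 0.46 for MIR3142HG and -0.088 to 0.38 for MIR1302-9HG. They ran from -0.16 to 0.20 for MIRLET7BHG, -0.58 to 0.39 for MIR17HG, -0.29 to 0.24 for MIR924HG, -0.24 to 0.070 for MIR600HG, -0.53 to 0.019 for MIR200CHG and -0.48 to 0.080 for MIR29B2CHG. With the reads behind the FPKM values of control 2, MIR194-2HG was at -0.43, MIR3142HG at -0.065, MIRLET7BHG at -0.081 and MIR4713HG at 0.36. Library totals put MIR924HG at 0.055, with the median of all genes moved to 0.11. The causes were not tested.

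With the replicate number as a block, 5 host genes had an unadjusted p under 0.05 in place of 6 (18.5%, against 17.0% of all genes), 0 met both criteria, and MIRLET7IHG and MIR17HG turned to -0.18 and -0.078. Libraries of one number share only that number: their deviations from the group means correlated at 0.054, 0.094 and 0.021, and of the control libraries only control 2 correlated best with its own number. Of the 82 host genes 55 could not be tested, and low depth and absence of the RNA cannot be told apart in them.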

Other observations

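In control 2 the deposited FPKM values did not follow the counts of the same library, as only 0.711% of genes kept the ratio seen in the others, where it was over 99.6%. Converted to reads, they give another set of values for the host genes, in which MIRLET7IHG had 69 reads in place of 12, MIR17HG 217 in place of 115, MIR9-1HG 483 in place of 308, MIR503HG 530 in place of 715 and MIR194-2HG 27 in place of 83. On the CPM scale these values were 3.99 for MIRLET7IHG, 12.6 for MIR17HG and 1.56 for MIR194-2HG, near the 3.20, 14.3 and 1.28 of control 3. With them, 17 of 26 host genes tested were higher in the control and 0 met both criteria in edgeR, 7 having an unadjusted p under 0.05 (26.9%, against 20.4% of all genes). Which column holds the library that the label names was not tested.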
